A study of Mus musculus with 20 samples.

Results

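The 9 genes described here, Mbp, Mobp, Mal, Mag, Mog, Cnp, Cldn11, Opalin and Ermn, encode proteins of the myelin sheath and of the cells that make it. They were chosen by name, and each symbol was found once among the 31053 genes of every basolateral amygdala (BLA) library. C57BL/6 wild type mice drank water with corticosterone (CORT) or with its vehicle, a cyclodextrin (BCD), were then injected with ketamine (Ket) or saline (Sal), and dissociated single cells were captured on the 10x Chromium platform. One passage of the study's methods has the controls on plain drinking water, and the labels (BCD) were followed here. All mice were 13 weeks old and, per the study's methods, male. The dose of CORT was 35 µg/ml over 6 weeks, and the single ketamine dose of 10 mg/kg preceded collection of the brain by 24 h. The 10 BLA libraries came from 1 mouse each and formed 4 groups. The vehicle was given to BCD/Sal mice 9901 and 9947 and to BCD/Ket mice 9946, 9949 and 9986, and CORT to CORT/Sal mice 9969 and 9970 and to CORT/Ket mice 9967, 9968 and 9971. The labels call the tissue BLA, while their extraction note names prefrontal cortex, and the 10 prefrontal libraries were not analysed here.

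Of 28722 deposited barcodes, 8305 were kept, those with at most 12.5% mitochondrial UMIs (unique molecular identifiers, each counting 1 captured RNA molecule) and at least 200 genes. The kept barcodes held between 287013 and 3680877 UMIs per library. Clustering without the 9 genes gave 395 oligodendrocyte precursor cell barcodes, 12 newly formed oligodendrocyte barcodes, 380 oligodendrocyte barcodes and 5059 barcodes of other named classes. Pdgfra, the growth factor receptor of precursor cells, was detected in 94.4% of precursor barcodes and in none of the other lineage stages, and Enpp6 in 12 of the 12 newly formed ones. Both genes were among the markers that named these clusters, so the values describe the classes and do not check their names. Mouse 9970 stood apart: 97.1% of its barcodes passed the mitochondrial limit against 16.8% to 31.0% in the other libraries. Of the barcodes of mouse 9970, 2345 fell in a cluster of 2348 that no marker list named. Only 29 barcodes of this mouse belonged to a named class. Mice 9946, 9947, 9967 and 9970, 1 per group, had 0 to 3 microglia and 0 to 4 precursor barcodes. No pair of libraries shared more than 10 kept barcode sequences.

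Myelin is the lipid-rich membrane that oligodendrocytes wrap around axons. Its proteins hold the stacked membranes together, join the sheath to the axon or shape the cell that extends it, and most are made only once a precursor cell has left the cell cycle and begun to differentiate. Some of the messages, that of Mbp above all, are carried out of the cell body and translated in the processes, next to the growing sheath.

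By role, the members fall into 4 groups. Mbp, myelin basic protein, and Mobp (NCBIM37 chr9:120058860-120090602, plus strand) encode small basic proteins on the inner face of the membrane, where Mbp draws the layers together. Mal (chr2:127458962-127482431, minus strand) encodes a lipid raft protein that sorts membrane cargo, and Cldn11 (chr3:31048868-31063246, plus strand) a claudin that forms the tight junctions between wraps. Mag (chr7:31684202-31699851, minus strand) encodes an adhesion protein that faces the axon, Mog (chr17:37147691-37160343, minus strand) a glycoprotein of the outermost layer, and Opalin (chr19:41136964-41151603, minus strand) a glycoprotein of the oligodendrocyte membrane. Cnp (chr11:100436218-100453043, plus strand) encodes a phosphodiesterase that keeps cytoplasmic channels of the sheath open, and Ermn (chr2:57897524-57905275, minus strand) ermin, which binds the cytoskeleton.

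The promoters of 4 members are shown because their genes appeared at different steps of the lineage in these libraries: Mag and Cnp were already counted in newly formed oligodendrocytes, whereas Mobp and Opalin were not. Each line gives the 250 bases before the transcription start in RefSeq, GRCm38.p6, read in the direction of the gene. The coordinates are chr7:30914864-30915113 (minus strand) for Mag, chr11:100574689-100574938 (plus) for Cnp, chr9:120149492-120149741 (plus) for Mobp and chr19:41077114-41077363 (minus) for Opalin. Capitals mark ACAAAG or its reverse complement CTTTGT, letters that SOX factors bind, and CTGGCAC, letters of the binding motif of MYRF, the myelin regulatory factor.
Mag: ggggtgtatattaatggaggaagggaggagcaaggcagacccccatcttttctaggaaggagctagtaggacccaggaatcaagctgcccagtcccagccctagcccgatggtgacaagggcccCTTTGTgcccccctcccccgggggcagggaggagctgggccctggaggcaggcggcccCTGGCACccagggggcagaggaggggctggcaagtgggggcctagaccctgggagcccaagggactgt
Cnp: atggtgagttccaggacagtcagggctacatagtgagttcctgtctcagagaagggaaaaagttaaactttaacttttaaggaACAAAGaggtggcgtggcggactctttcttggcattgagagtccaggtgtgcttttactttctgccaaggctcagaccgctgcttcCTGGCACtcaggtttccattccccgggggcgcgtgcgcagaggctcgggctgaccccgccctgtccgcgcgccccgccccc
Mobp: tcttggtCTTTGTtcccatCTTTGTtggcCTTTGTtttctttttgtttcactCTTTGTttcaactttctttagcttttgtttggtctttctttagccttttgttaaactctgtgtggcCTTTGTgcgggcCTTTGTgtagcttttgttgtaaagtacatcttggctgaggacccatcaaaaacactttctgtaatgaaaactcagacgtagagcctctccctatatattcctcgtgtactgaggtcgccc
Opalin: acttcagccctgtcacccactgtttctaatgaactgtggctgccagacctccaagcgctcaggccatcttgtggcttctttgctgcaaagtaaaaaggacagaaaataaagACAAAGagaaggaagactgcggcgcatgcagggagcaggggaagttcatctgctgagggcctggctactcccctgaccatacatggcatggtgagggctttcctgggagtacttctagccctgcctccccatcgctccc
The SOX letters occurred in 4 of the 8 members with a promoter entry (Mobp, Mag, Cnp and Opalin) and in 16.5% of all 32851 promoter windows of that length. The Mobp window held 6 of them, starting 243, 231, 221, 198, 132 and 120 bases before the start. The MYRF letters, searched on both strands, occurred in Mag and Cnp, 2 of the 8, and in 4.19% of all windows. A member counted if any of its entries had the letters, so these counts and the shares of single windows are unlike measures. The 8 members had 10 entries, and another Mag entry, chr7:30914322-30914571, held neither motif. Cldn11, also counted in newly formed oligodendrocytes, had neither ACAAAG nor the MYRF letters in its window. Nor did Mal, Mog or Ermn, so the 4 windows shown do not stand for all early and late members. Another SOX core, ACAAT, occurred in Ermn and in 27.7% of all windows. The ACAAAG and MYRF letters did not overlap, both gene groups shared ACAAAG, and a match of letters is not a measured binding site. No promoter entry for Mbp was used.

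Along the lineage, the 9 genes did not appear together. Mbp, Cnp, Cldn11 and Mag were present at the newly formed stage, Mog was low there, and Mobp, Opalin and Ermn had no UMI in it, with Mal at a single UMI. The levels below are counts-per-million (CPM), UMIs of a gene scaled to the UMIs of its class, pooled over libraries, and the intervals on ratios are exact and cover counting error only. Differences between classes are descriptions without a test, because the same barcodes were used to form the classes, although none of the 9 genes was.

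Mbp stood at 109 CPM in precursors (75 UMIs), 6404 in newly formed oligodendrocytes (461 UMIs) and 5183 in oligodendrocytes (5269 UMIs). The ratio of the last stages was 0.809 (95% interval 0.736 to 0.892). Mouse 9949 gave 258 of the 461 newly formed UMIs. Without it the newly formed level of Mbp was 5108 CPM, and the mean of the other 7 oligodendrocyte libraries was 4904 CPM. Within mice, 9949 (8000 CPM), 9986 (6525 CPM) and 9901 (5556 CPM) were higher at that stage than in their own oligodendrocytes. Mice 9969 (4174 CPM) and 9968 (1735 CPM, from 4 UMIs) were lower. Cnp stood at 94.5, 3959 and 4469 CPM in the pooled counts, a ratio of 1.13 between the last stages (1.00 to 1.28). Its newly formed level was carried by the 4 deepest of 12 barcodes, which held 279 of 285 Cnp UMIs, whereas the other 8 pooled to 407 CPM of Cnp and 4474 CPM of Mbp. Both genes were also the most detected members in precursors, where Mbp had a UMI in 11.9% and Cnp in 11.4% of barcodes.

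Cldn11 and Mag were intermediate. Cldn11 stood at 5.82, 1361 and 2970 CPM and Mag at 4.36, 1084 and 2598 CPM, so that their newly formed levels were 45.8% and 41.7% of the oligodendrocyte levels. Mog had no UMI in precursors, 11 UMIs (153 CPM) in newly formed oligodendrocytes and 1237 CPM in oligodendrocytes, a ratio of 8.10 between the last stages (4.51 to 16.3).

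The late members were Mal, Mobp, Ermn and Opalin. Mal stood at 11.6 CPM in precursors and 13.9 (1 UMI) in newly formed oligodendrocytes, then at 7547 in oligodendrocytes, which was 543 times the newly formed level with a counting interval of 97.5 to 21461. Mobp, at 2740 CPM in oligodendrocytes, was at least 65.7-fold higher there than the 3 UMIs that a count of 0 allows at the newly formed stage. The same bound was 40.9-fold for Ermn (1705 CPM) and 26.3-fold for Opalin (1096 CPM).

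Measured against precursors, the oligodendrocyte level was 47.5 times higher for Mbp (37.8 to 60.5) and 47.3 times for Cnp (37.0 to 61.4), the smallest ratios of the 9. Mobp was 89.7 times higher, Ermn 234 times, Cldn11 511 times and Mal 649 times. Mag was 595 times higher on 3 precursor UMIs, with an interval of 204 to 2889. Mog and Opalin, with no precursor UMI, were at least 284-fold and 251-fold higher against 3 counts over the class.

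**Figure D1:**
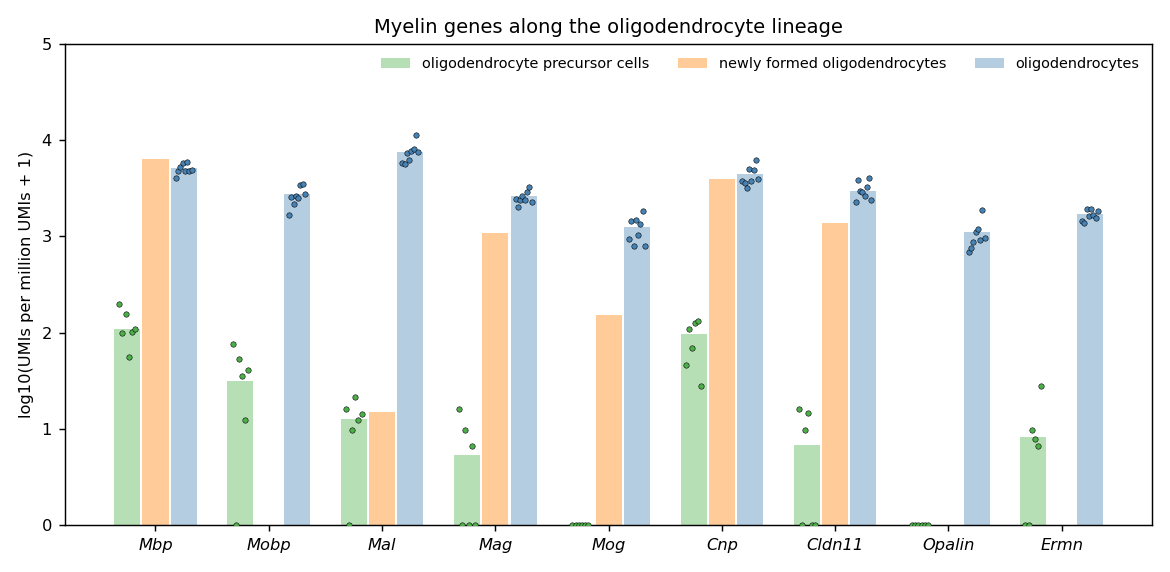
Pooled level of each of the 9 genes, as log10 of CPM + 1, in precursors, newly formed oligodendrocytes and oligodendrocytes (bars), with 1 point per library of at least 10 barcodes of the class. At the middle stage Mbp has 6404 CPM and Cnp 3959, the latter from 279 UMIs in 4 barcodes and 6 in the other 8, while Mobp, Opalin and Ermn have no UMI there and Mal has 1.

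The newly formed stage rests on few barcodes. Its 12 barcodes came from 5 mice: 6 from 9986, 2 each from 9949 and 9969, and 1 each from 9901 and 9968. The 2 deepest contributed 49.1% of the class's UMIs. Mbp and Cldn11 were counted in 11 of 12 barcodes, Mag in 10, Cnp in 8, Mog in 3 and Mal in 1. The 4 deepest barcodes held 9132 to 19501 UMIs and the other 8 held 1217 to 2520. Mobp, Opalin and Ermn were at 0 in every one, the barcode of 19501 UMIs included. Whether these 12 barcodes formed a class of their own depended on the filter: with at least 500 genes all 12, and with at most 5% mitochondrial UMIs all 6 that remained, were placed among the precursors. Removal of doublet-scored barcodes took out 5 of the 12 and placed the other 7 among the precursors, and at 25% mitochondrial UMIs the class grew to 24 barcodes.

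Within oligodendrocytes the 9 genes were detected together. Of 380 barcodes, 370 held at least 5 of the 9 and the median barcode held 8, with a median of 53 UMIs of the 9 genes, or 2.70% of its UMIs. Detection ranged from 68.2% of barcodes for Opalin to 97.4% for Mbp. In precursors, 292 of 395 barcodes (73.9%) had no UMI of any member and the highest number in 1 barcode was 4.

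The spread between mice in oligodendrocytes differed among the genes. Over the 8 libraries with at least 10 oligodendrocyte barcodes, Mbp stood at 5009 ± 595 CPM (SD, n = 8), a coefficient of variation of 11.9%, and Ermn at 1665 ± 217 (13.0%). Opalin, at 1045 ± 381, had the widest spread at 36.4%, and Mog, at 1205 ± 377, the next at 31.2%. Mouse 9968 decided that order: without it Opalin varied by 19.2% and Mog by 26.3%. Mag varied by 15.0% and Cldn11, Cnp, Mobp and Mal by 21.1% to 23.9%.

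Outside the lineage, the members had 3 patterns. Mbp and Mobp were counted at a similar low level in nearly every class, Mal, Cnp, Cldn11 and Mag each stood higher in particular classes than in the rest, and Mog, Opalin and Ermn were close to 0. Of the 5059 barcodes in these classes, 3456 (68.3%) had no UMI of any member, and 9 had 5 or more members. The rule for the 9 genes names these UMIs free RNA, RNA released from broken cells that enters droplets with other cells, but a UMI does not show its source.

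Mbp stood between 44.4 CPM in pericytes or mural cells and 89.2 in inhibitory neurons over the 8 classes of more than 50 barcodes, with 64.4 in astrocytes, 63.4 in endothelial cells, 68.8 in microglia and 71.2 in excitatory neurons. The spread over libraries was wide, 77.4 ± 95.3 CPM in endothelial cells (n = 10) and 70.9 ± 16.6 in excitatory neurons (n = 9), so that these levels cannot be ordered beyond it. In the neurons, which do not make myelin, 133 of 1038 excitatory barcodes had an Mbp UMI. Those 133 barcodes were deeper, with a median of 3110 UMIs against 1448, and 21.1% of them had another member against 6.08% of the rest.

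Mal had a second site. Endothelial cells, which line the vessels, stood at 596 CPM of Mal (1419 UMIs), and the 10 libraries lay between 293 and 769 CPM. By mouse, the values were 469 and 477 in BCD/Sal mice, 769, 603 and 665 in BCD/Ket mice, 522 and 293 in CORT/Sal mice, and 480, 574 and 710 in CORT/Ket mice. The lowest value, in mouse 9970, was 1 UMI, under the 3 counts of the floor, and the other 9 libraries were at 469 CPM or more. The BCD/Ket mice were above both BCD/Sal mice, and the other compared groups overlapped. The share of all genes with such an order is not given, so the order is not read as a trait of Mal.

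A Mal UMI was present in 52.3% of endothelial barcodes (median depth 1370 UMIs) against 1.73% of excitatory neurons (1589.5 UMIs). After every barcode was thinned to 500 UMIs, the shares were 25.1% and 0.389%. Of the 575 endothelial barcodes with Mal, 13.7% had another member, against 9.14% of those without. The barcodes with Mal were deeper, with a median of 2029 UMIs against 1001. Pericytes or mural cells were next, at 186 CPM pooled and 57.4 to 305 over 6 libraries, below every endothelial library except that of mouse 9970. In the other classes with at least 10 barcodes Mal stood at 48.7 CPM or lower, apart from 86.5 CPM in the 26 fibroblast barcodes.

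Cnp was higher in glia of other kinds. It stood at 150 CPM in astrocytes (392 UMIs in 287 barcodes), 165 in ependymal cells (44 UMIs) and 50.3 in microglia, against 6.94 ± 5.79 in excitatory neurons (n = 9). By mouse, the astrocyte level was 95.3 and 0 CPM in BCD/Sal mice, 0, 237 and 115 in BCD/Ket mice, 129 in the 1 CORT/Sal library with enough barcodes, and 0, 151 and 141 in CORT/Ket mice. The libraries at 0 were those of mice 9947, 9946 and 9967, with 14, 27 and 39 astrocyte barcodes. The other 6, with 180 to 255 barcodes, lay between 95.3 and 237 CPM. A count of 0 in so few barcodes bounds the level only loosely. The 3 libraries at 0 were also among the 4 libraries that had few microglia.

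The share of astrocyte barcodes with Cnp was 21.1%, and 5.66% after thinning to 500 UMIs. Another member was present in 11.8% of the astrocyte barcodes with Cnp and in 9.89% of those without, at median depths of 2832 and 1354.5 UMIs. In ependymal cells these shares lay further apart, at 36.8% and 8.33%, and 1 barcode held 11 of the 44 Cnp UMIs. Depth lay further apart as well, with medians of 6272 and 1337.5 UMIs, and a deeper barcode detects more genes. In microglia the 6 libraries lay between 33.4 and 64.9 CPM, a narrow band for so low a level.

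Mag and Cldn11 were counted at lower levels in a few other classes. Mag stood at 41.2 CPM in ependymal cells, from 11 UMIs in 2 barcodes. Microglia, the resident phagocytes of the brain, stood at 31.1 CPM of Mag, from 52 UMIs in 49 barcodes with at most 2 in any 1. The 6 libraries with enough microglia were at 27.9 CPM in the BCD/Sal mouse, 21.6 and 56.7 in BCD/Ket mice, 23.6 in the CORT/Sal mouse and, in CORT/Ket mice, 15.8 and 56.2, so every library had it and the groups overlapped. Of the microglia with Mag, 22.4% had another member, against 20.5% of those without, whereas endothelial cells, of the same order of barcodes, stood at 0.839 CPM of Mag. Cldn11 was at 173 CPM in fibroblasts, 10 UMIs in 4 of 26 barcodes, and none of the 4 had another member.

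**Figure D2:**
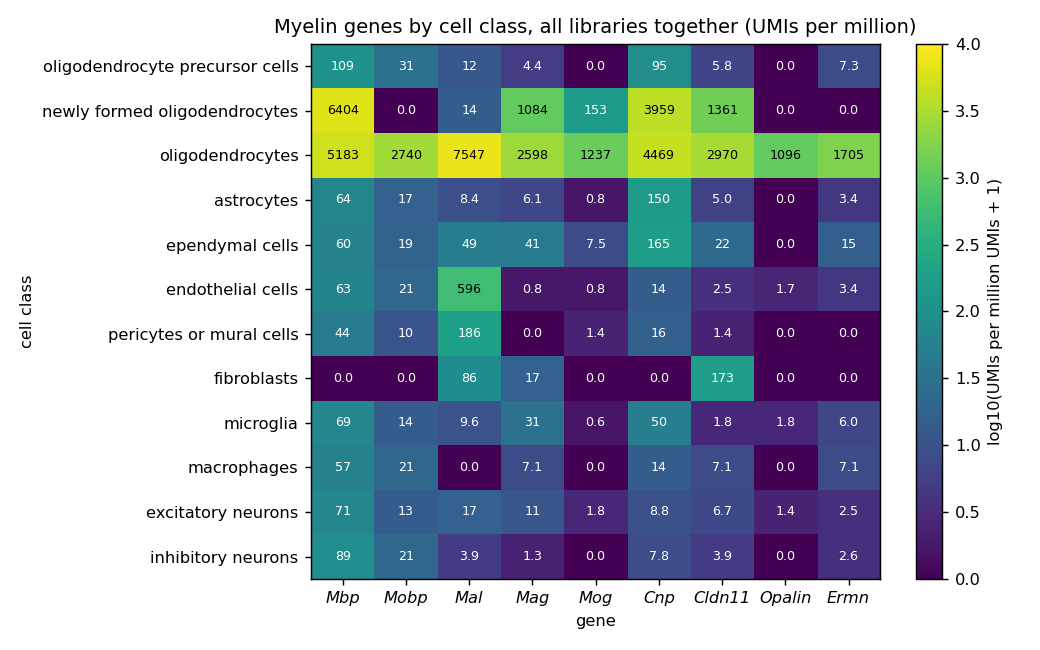
Pooled level of the 9 genes in each class (CPM). Beyond the oligodendrocyte row, Mal reaches 596 CPM in endothelial cells, Cnp 150 in astrocytes and 165 in ependymal cells, and Cldn11 173 in fibroblasts, while Mbp stays between 44.4 and 89.2 in the named classes outside the lineage with more than 50 barcodes.

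The make-up of the 9 genes' UMIs differed between sources. In oligodendrocytes Mal took 25.5% of them, Mbp 17.5% and Cnp 15.1%. In neurons Mbp took 56.7% and Mobp 11.3%, in endothelial cells Mal took 84.6%, and in astrocytes Cnp took 58.9%. Newly formed oligodendrocytes stood at 49.4% Mbp and 30.5% Cnp. These shares compare genes by captured molecules and not by length.

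The barcodes left out for their mitochondrial share held many of these molecules. Over the 9 libraries without that of mouse 9970, Mbp made up 45.6 ± 4.22% (SD) of the 9 genes' UMIs in barcodes over the 12.5% limit. These libraries lay between 39.5% and 51.5%. In oligodendrocytes the share was 18.8 ± 4.24%, between 12.6% and 28.7%, and the 2 ranges did not overlap. The 28.7% came from mouse 9967, with 3 oligodendrocyte barcodes and 115 UMIs of the 9 genes. The next highest was 19.6%, in mouse 9949. Mouse 9970 was left out for its few UMIs of the 9 genes. There Mbp took 15.4% of 39 UMIs over the limit and 17.9% of 67 in oligodendrocytes. A high mitochondrial share is common in damaged cells and in droplets with little cytoplasm, and the deposited files do not tell these apart.

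Split by mitochondrial share, the make-up was similar up to 25% for Mbp and differed above it. Without mouse 9970, Mbp took 22.3 ± 8.29% up to 5% mitochondrial UMIs (n = 8), 20.7 ± 4.79% from there to 12.5% (n = 9), 23.2 ± 9.19% to 25%, 48.0 ± 10.4% to 50% and 69.1 ± 8.69% above 50%. Mobp took 6.67%, 9.33%, 9.86%, 14.2% and 19.1% over the same steps. Mal went the other way, at 31.6%, 26.4%, 25.6%, 13.5% and 2.94%. In the lowest step its libraries ran from 16.2% to 50%. The shares cover all barcodes of a step and not oligodendrocytes alone, and Mal took 84.6% in endothelial cells. How far the mix of cell classes shaped these steps was not tested.

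Mag took 8.87% in the lowest step and 0.941% in the highest, and Cnp 16.1% and 4.18%. Above 50% mitochondrial UMIs, Mbp lay between 49.4% and 75.6% in the 9 libraries. The Mbp share in neurons was nearer to that above the mitochondrial limit than to that of the oligodendrocyte class, a comparison of shares without a test. A share also rises where the other members fall, and the source of the neuronal UMIs was not tested.

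**Figure D3:**
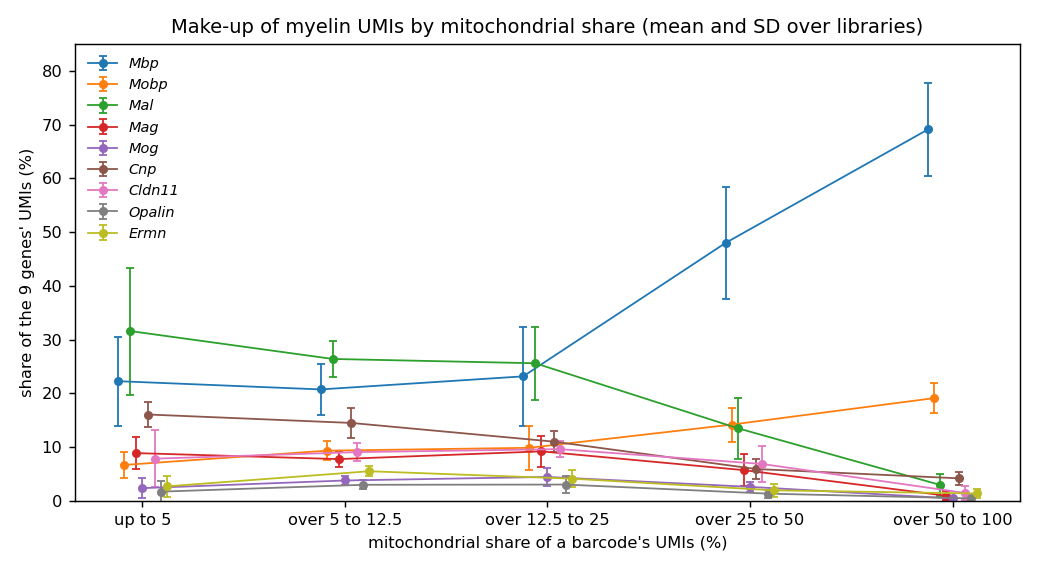
Share of the 9 genes' UMIs taken by each gene (%) against the mitochondrial share of a barcode's UMIs, as mean and SD over libraries without mouse 9970. Mbp goes from 22.3% in the lowest step to 69.1% in the highest and Mal from 31.6% to 2.94%.

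Treatment was compared first outside the lineage, where 1 value per mouse was taken for Mbp over all 5059 barcodes of the other named classes. The values were 102 and 90.5 CPM in BCD/Sal mice, 93.9, 57.8 and 78.2 in BCD/Ket mice, 46.8 and 0 in CORT/Sal mice, and 47.6, 49.3 and 52.5 in CORT/Ket mice. All 5 CORT mice were below all 5 BCD mice, with 52.5 CPM in mouse 9971 as the highest CORT value and 57.8 in mouse 9949 as the lowest BCD value. The share of all genes with such an order is not given, and Mbp alone of the members was tested here. The order is therefore not read as a trait of Mbp. The value of 0 came from mouse 9970, whose 7814 UMIs outside the lineage allow up to 384 CPM at a count of 0, so it carries little information. The 2345 barcodes of this mouse in the unnamed cluster were left out here. They stood at 310 CPM of Mbp, above the highest BCD value, so the place of this mouse depends on that exclusion.

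The mean was 39.3 ± 22.1 CPM with CORT and 84.5 ± 17.2 with BCD (SD, n = 5 each), a difference of -45.3 CPM. The exact two-sided permutation test gave p = 0.00794, the smallest that 5 against 5 mice allow, and 0.0476 after Benjamini-Hochberg adjustment over the 6 comparisons of Mbp. Without mouse 9970 the difference was -35.5 CPM with the groups still apart, and the exact permutation p of 0.0159 became 0.0635 after adjustment. Leaving out any 1 of the other mice gave the same p, the smallest that 9 mice allow, and 0.0635 or 0.0952 after adjustment. The adjusted call also ended with at most 5% mitochondrial UMIs (adjusted exact permutation p = 0.143), at least 1000 genes (0.381), removal of doublet-scored barcodes (0.0952) or finer clusters (0.238).

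Within the arms, CORT/Ket was 26.8 CPM below BCD/Ket (exact permutation p = 0.1, the smallest 3 against 3 mice allow, adjusted 0.3), and CORT/Sal was at 23.4 ± 33.1 CPM against 96.3 ± 8.24 in BCD/Sal (exact permutation p = 0.333, the smallest 2 against 2 allow). Ketamine and saline did not separate: 63.2 ± 18.7 CPM over 6 Ket mice and 59.9 ± 46.5 over 4 Sal mice (exact permutation p = 0.848). The 3 libraries with at least 100 microglia in each arm gave 49.6 ± 2.85 CPM with CORT and 79.4 ± 22.2 with BCD (exact permutation p = 0.1, adjusted 0.3).

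**Figure D4:**
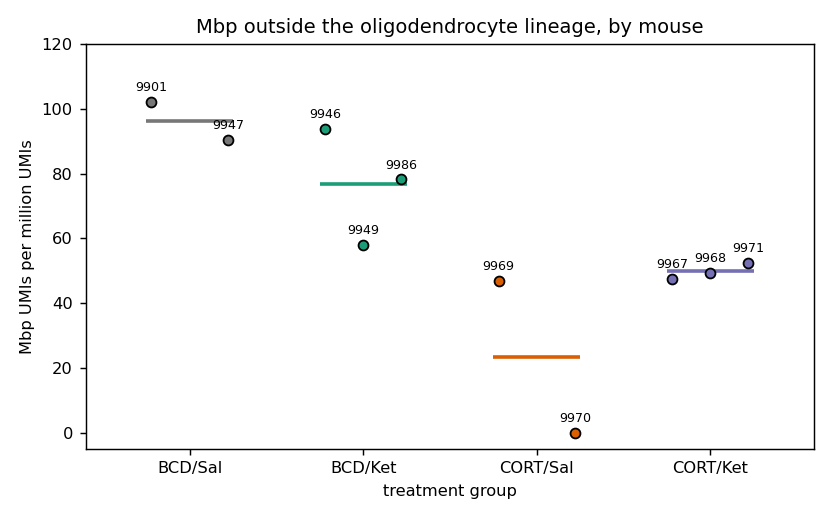
Mbp in the named classes outside the oligodendrocyte lineage (CPM), 1 point per mouse with its number, and a line at each group mean. The CORT mice lie between 0 and 52.5 CPM and the BCD mice between 57.8 and 102.

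The other members outside the lineage overlapped between CORT and BCD mice. Mobp lay between 15.3 and 28.7 CPM with BCD and between 0 and 22.0 with CORT. Mal lay between 25.9 and 246 CPM with BCD and between 51.2 and 151 with CORT, and Cnp between 2.93 and 92.5 against 0 and 67.4. Mbp in the barcodes over the mitochondrial limit overlapped as well, at 267 to 1137 CPM with BCD and 218 to 861 with CORT. So did Mbp within oligodendrocytes, at 4045 to 5749 against 4817 to 5882 CPM. Mbp within single classes outside the lineage overlapped too. It lay at 38.4 to 309 CPM with BCD against 0 to 56.8 with CORT in endothelial cells. The ranges were 0 to 315 against 0 to 73.6 in astrocytes and 51.7 to 100 against 55.1 to 72.6 in excitatory neurons. Microglia and inhibitory neurons overlapped as well.

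The share of oligodendrocytes among named barcodes, a rough guide to the myelinating tissue in a suspension, ranged from 3.50% to 25.5% with BCD and from 2.31% to 17.2% with CORT. The 17.2% was that of mouse 9970, 5 of 29 named barcodes, and the other CORT mice were at 2.31% to 4.74%. The BCD mice were at 3.50%, 11.8%, 25.5%, 7.07% and 6.89%. The share also depends on which other classes a library held, and mice 9946, 9947, 9967 and 9970 had few or no microglia and precursors. Across the 10 libraries no relation to Mbp outside the lineage was detected (Pearson r = 0.0576, permutation p = 0.862, Spearman rho = 0.115, permutation p = 0.759). Without the 2 libraries farthest from the median share, those of mice 9946 and 9970, r was 0.441 (permutation p = 0.285, n = 8). Over the 6 libraries with at least 100 microglia r was -0.109 (permutation p = 0.884), and the other 4 libraries are too few for a value. The relation depended on the settings: r was 0.776 (permutation p = 0.00092) with at most 5% mitochondrial UMIs.

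In oligodendrocytes, no member passed the test in either comparison that could be made. CORT/Sal had 1 library with at least 10 oligodendrocyte barcodes, so only BCD/Ket against BCD/Sal and CORT/Ket against BCD/Ket were tested, with edgeR's quasi-likelihood test on counts summed per mouse. All 9 members passed the filter on low counts, 0 of 9 were called, and over all 3568 genes 0.028% were called in each comparison. The differences of the members lay between -0.10 and 0.62 on the log2 scale.

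Opalin had the largest of them. Its level was 689 and 748 CPM in BCD/Sal mice, 870, 1096 and 1184 in BCD/Ket mice, 908 in the CORT/Sal mouse 9969 and, in CORT/Ket mice, 1895 and 970. Both BCD/Sal mice were below every other mouse, and mouse 9968, with 24 oligodendrocyte barcodes, was far above the rest. The difference of BCD/Ket from BCD/Sal was 0.62 on the log2 scale (SE 0.35, edgeR quasi-likelihood test, Benjamini-Hochberg adjusted p = 0.981).

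Mal was at 5775 and 5647 CPM in BCD/Sal mice, 7409, 6235 and 7633 in BCD/Ket mice, 8020 in the CORT/Sal mouse and, in CORT/Ket mice, 11220 and 7491. The BCD/Sal mice were lowest here too. Ermn also had its lowest values in the BCD/Sal mice, at 1431 and 1361 CPM. The share of all tested genes with this order of mice is not given, so the order in Opalin, Mal and Ermn is not read as a trait. The log2 differences of Mal were 0.36 (SE 0.30) for BCD/Ket against BCD/Sal and 0.42 (SE 0.29) for CORT/Ket against BCD/Ket. Neither was past the threshold (edgeR, adjusted p = 0.981 and 0.999). Mbp was at 4045 and 4762 CPM in BCD/Sal mice, 5219, 5749 and 4723 in BCD/Ket mice, 5882 in the CORT/Sal mouse and, in CORT/Ket mice, 4817 and 4879. Its groups overlapped in both comparisons, with log2 differences of 0.31 (SE 0.30) and -0.10 (SE 0.30).

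Over the 9 members the median log2 difference was 0.28 for BCD/Ket against BCD/Sal, with 8 of 9 above 0, against 0.029 over all genes tested. For CORT/Ket against BCD/Ket it was 0.27, with 7 of 9 above 0, against -0.017. That direction rested on mouse 9968: the median was -0.11 without it, with 2 of 9 above 0, and 0.55 without mouse 9971. The 2 comparisons share the BCD/Ket mice, and with standard errors of 0.29 to 0.35 a difference of this size was not detectable for a single gene.

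**Figure D5:**
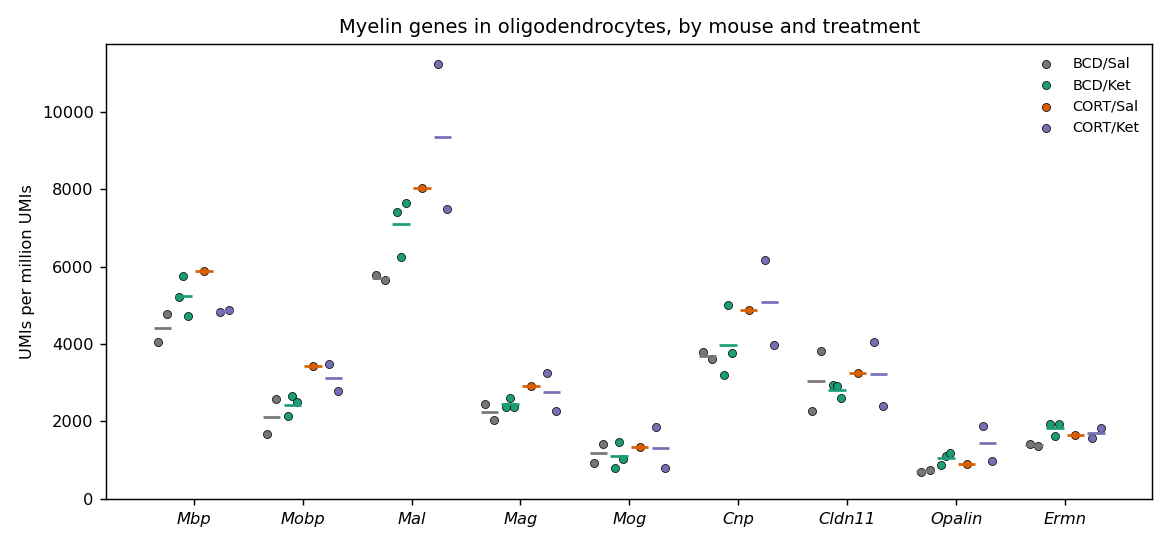
Level of the 9 genes in oligodendrocytes (CPM), 1 point per mouse with at least 10 oligodendrocyte barcodes, coloured by group. No member separates the tested groups beyond the test's threshold, and mouse 9968 of CORT/Ket holds the highest Mal and Opalin levels, 11220 and 1895 CPM.

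In precursors, only Mbp and Cnp had enough counts for the test. Mbp was at 197 CPM in the BCD/Sal mouse, 99.0 and 155 in BCD/Ket mice, 54.9 in the CORT/Sal mouse and, in CORT/Ket mice, 101 and 107. Cnp was at 45.4, then 109 and 68.8, then 124, then 130 and 26.7 CPM in the same order. Both members overlapped between CORT/Ket and BCD/Ket, and 0 of 2 were called, as were 0% of 4055 genes (edgeR quasi-likelihood test).

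In this class the result depended on the minimum of genes per barcode. With at least 500 genes, 22 of 5067 genes were called in CORT/Ket against BCD/Ket, 4 of the 5 members tested among them. The 4 were Cldn11 (-4.95 on the log2 scale), Mag (-5.62), Cnp (-3.29) and Mbp (-3.68). With at least 1000 genes, 27 of 3516 genes were called, the same 4 members included, and no other member was tested there. In both settings every newly formed barcode that was kept, 12 and 8 of them, was counted as a precursor. Of the 12, 8 came from BCD/Ket mice and 1 from a CORT/Ket mouse, and their part in these calls was not tested. With at most 5% mitochondrial UMIs and without doublet-scored barcodes the 6 and 7 that remained were counted as precursors too, and 0 members were called.

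In endothelial cells all 4 contrasts could be tested, for 3 members. On the log2 scale, Mal differed with ketamine by 0.56 in BCD mice and 0.47 in CORT mice, and with CORT by -0.14 in Sal mice and -0.22 in Ket mice, and was not called in any (SE 0.49 to 0.65, edgeR quasi-likelihood test). Of all 6456 genes, 0% were called in both ketamine contrasts and 0.0929% in each CORT contrast.

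Endothelial Mbp was at 40.3 and 309 CPM in BCD/Sal mice, 165, 104 and 38.4 in BCD/Ket mice, 19.4 and 0 in CORT/Sal mice, and 0, 56.8 and 41.6 in CORT/Ket mice. CORT/Sal mouse 9969 was below both BCD/Sal mice, and mouse 9947 was far above the other BCD/Sal mouse. The CORT/Sal value of 0 came from mouse 9970 with 11 endothelial barcodes. A single Mal UMI there stood at 293 CPM, so the 0 carries little information. The difference of CORT/Sal from BCD/Sal was -2.18 on the log2 scale (SE 0.74, edgeR quasi-likelihood test, adjusted p = 0.450), and -1.06 without mouse 9947. For CORT/Ket against BCD/Ket it was -0.98 (SE 0.43, edgeR, adjusted p = 1.00).

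Mobp in the same cells was at 11.0 and 196 CPM in BCD/Sal mice, 73.2, 22.9 and 23.6 in BCD/Ket mice, 4.90 and 0 in CORT/Sal mice, and 0, 14.9 and 17.3 in CORT/Ket mice, with mouse 9947 again the highest. The 0 in CORT/Sal was again that of mouse 9970 and carries little information. The Mobp difference of CORT/Sal from BCD/Sal was -2.97 on the log2 scale (SE 1.08, edgeR, adjusted p = 0.513). These 3 tests were the ones at an unadjusted p under 0.05 among 47 tests of members over 12 comparisons, and none was called.

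In astrocytes, microglia and excitatory neurons 0 members were called as well, with 0.0114%, 0.0114%, 0%, 0% and 0% of the genes called in their 5 comparisons. Excitatory Mbp, with 85.5 and 51.7 CPM in BCD/Sal mice, 66.3, 100 and 86.4 in BCD/Ket mice, 55.1 in the CORT/Sal mouse and, in CORT/Ket mice, 64.3, 72.6 and 56.2 was similar over the mice: the BCD/Ket values overlapped those of BCD/Sal and of CORT/Ket. For CORT/Ket against BCD/Ket its difference was -0.42 on the log2 scale (SE 0.45), and in astrocytes it was -0.60 (SE 0.48). In the microglia of the same comparison it was 0.37 (SE 0.47), in the other direction.

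The genes around the members were described from 2 lists. Of 20 genes of myelin lipids and membrane, 18 were higher in oligodendrocytes than in precursors, 11 of them by at least 10-fold, and 12 were already higher in newly formed oligodendrocytes. Trf, which encodes the iron carrier transferrin, resembled the late members, at 11.6 CPM in precursors, 0 in newly formed oligodendrocytes and 4219 in oligodendrocytes. Car2, a carbonic anhydrase, did too, at 17.5, 13.9 and 3037 CPM. Nfasc, an adhesion protein of the junction of axon and glia, was instead highest at the newly formed stage, at 157, 4695 and 592 CPM.

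Of 14 transcription factors of the lineage, 4 were higher in oligodendrocytes than in precursors. Myrf, which turns on myelin genes, stood at 42.2, 389 and 386 CPM over the 3 stages. Tcf7l2, a factor of the Wnt pathway, was at 81.4, 903 and 48.2 CPM, and Hes5, a Notch target, at 540, 0 and 3.93. In oligodendrocytes by treatment, 20 of the 20 lipid and membrane genes and 10 of the 14 factors were tested, and 0 of either list were called, with medians of 0.13 and 0.08 on the log2 scale for BCD/Ket against BCD/Sal and 0.08 and -0.08 for CORT/Ket against BCD/Ket.

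The genes whose levels were most like the summed level of the 9 members were found over 69 profiles, each 1 class of 1 library, from 10 classes. Leaving out the members, the nearest included Tmem88b (Pearson r = 0.894), C030029H02Rik (0.888), Itgb4 (0.882), Qdpr (0.881), Plekhh1 (0.875), Tprn (0.872), Adamts4 (0.871), Anln (0.864) and Klhl4 (0.863). The members' own r, against a sum that includes them, ran from 0.834 for Cnp to 0.895 for Opalin. The profiles share libraries and the contrast of oligodendrocytes with all other classes, Tmem88b, Adamts4 and Anln were among the markers that named the class, and the values are a description without a test.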

How the data were processed

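Per the file headers and labels, the authors made UMI counts per gene and barcode with Cell Ranger 3.0.2. The deposited counts were unfiltered for cell quality and not normalized. The submitters' processing notes name mm9 and Seurat 3.1.1, while the gene list holds genes beyond an mm9 annotation, so the annotation is not settled. Kept barcodes had at most 12.5% mitochondrial UMIs and at least 200 genes. They were clustered with scanpy 1.11.5 (2000 variable genes, 30 principal components, 20 neighbours, Leiden resolution 0.8) without the 9 genes and mitochondrial genes, and clusters were named from marker lists. A cluster with over 90% of its barcodes from 1 library stayed unnamed. No doublets were removed in the main analysis. The members and lists were chosen with earlier results of these data known, and every member was named, as were the 10 genes most like them except 1 that is not reported here.

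Counts were summed per library and class of at least 10 barcodes and tested with edgeR 4.0.16 (TMM, filterByExpr, robust quasi-likelihood, 1 fit of the 4 groups, Benjamini-Hochberg, threshold 0.05). The test was checked on simulated counts with changes larger than those of the members in oligodendrocytes. That check does not cover differences as small as theirs. Cells are not replicates: n counts mice, 1 library each. Mbp outside the lineage was compared by exact two-sided permutation over mice. Library depth was 287013 to 3680877 UMIs in kept barcodes, and intervals and floors (3 counts) cover counting error only.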

Additional observations from a re-analysis of the deposited data

How the results depend on the processing

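Over 222 alternative fits, 148 counts of called genes stayed within 1.5 times the value reported, and a member was called in 2 fits, both in precursors. Genes called in BCD/Ket against BCD/Sal and in CORT/Ket against BCD/Ket were 1 and 1 in oligodendrocytes and 1 and 1 in astrocytes. In oligodendrocytes they became 0 and 0 with DESeq2, 0 and 2 without a filter on low counts, 5 and 4 with the libraries of few microglia as a term, and 0 and 2 with at least 500 genes. The first also became 0 with only the 2 groups in the fit, 2 with at least 5 barcodes and 0 without doublet-scored barcodes, and the second 2 with at most 25% mitochondrial UMIs. In precursors (0 in the reported fit) they were 22 with at least 500 genes and 27 with at least 1000. In astrocytes they became 0 under RLE factors, DESeq2, only the 2 groups, only libraries with at least 100 microglia, either minimum of genes, or removal of doublet-scored barcodes, in 1 or both comparisons, and 3 without the filter for BCD/Ket against BCD/Sal.

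In endothelial cells, BCD/Ket against BCD/Sal (0) became 6 without the filter, 7 with the microglia term, 2 at 25% mitochondrial UMIs and 1 at resolution 1.2. CORT/Sal against BCD/Sal (6) became 0 with DESeq2, 3 without the filter and 10 with the term. CORT/Ket against CORT/Sal (0) became 1, 2 and 3 without the filter, with only the 2 groups and with the term. CORT/Ket against BCD/Ket (6) became 0 with DESeq2 and at 5% mitochondrial UMIs, 14 without the filter, 2 with only the 2 groups and 3 with at least 1000 genes. In excitatory neurons (0 and 0) the counts became 1 and 2 without the filter, and for CORT/Ket against BCD/Ket 1 with only libraries of at least 100 microglia and 2 at 5% mitochondrial UMIs.

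Leaving out 1 mouse at a time, the counts ranged from 0 to 3 and 0 to 2 in oligodendrocytes, 0 to 3 in precursors, 0 to 2 and 0 to 3 in astrocytes, 0 to 5, 0 to 14, 0 to 1 and 1 to 10 in endothelial cells, 0 to 1 in microglia, and 0 to 3 and 0 to 0 in excitatory neurons, in the order of the report. The cause of these shifts was not tested.

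Member differences on the log2 scale kept their sign in 301 of 324 alternatives in oligodendrocytes and 183 of 196 in endothelial cells, and none was called in either class. For BCD/Ket against BCD/Sal in oligodendrocytes, Cldn11 became 0.16 without the filter, 0.044 with the microglia term and 0.062 with at least 500 genes. Mog became -0.058 with RLE factors, -0.086 with only the 2 groups, -0.095 with at least 5 barcodes, -0.041 with the term, -0.029 at 25% mitochondrial UMIs and -0.018 with the members kept in the clustering. For CORT/Ket against BCD/Ket, Cldn11, Mag and Cnp became -0.14, -0.16 and -0.036 at 25% mitochondrial UMIs. Endothelial Mbp in BCD/Ket against BCD/Sal became -0.053 with RLE factors, -0.70 with DESeq2, -0.014 with only the 2 groups, -0.060 without doublet-scored barcodes and -0.63 at resolution 1.2. Endothelial Mobp became 2.05 with at least 500 genes, and Mal in CORT/Ket against BCD/Ket 0.052 at 5% mitochondrial UMIs.

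Leaving out 1 mouse, the oligodendrocyte differences of BCD/Ket from BCD/Sal ranged from -0.33 to 0.32 for Cldn11, -0.098 to 0.36 for Cnp and -0.34 to 0.26 for Mog. Those of CORT/Ket from BCD/Ket ranged from -0.24 to 0.55 for Cldn11, -0.12 to 0.42 for Mag, -0.026 to 0.65 for Cnp, -0.49 to 0.76 for Mog, -0.18 to 0.0094 for Mbp and -0.13 to 0.87 for Opalin. In endothelial cells they ranged from -1.5 to 1.2 for Mbp and -2.39 to 1.51 for Mobp in BCD/Ket against BCD/Sal, and from -2.38 to 0.28 for Mal in CORT/Sal against BCD/Sal.

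For Mbp outside the lineage, CORT was below BCD in every alternative run, each without the clusters that stayed unnamed in that run. The difference was -51.9 to -35.5 CPM when 1 mouse was left out. The adjusted exact permutation p was above 0.05 at 5% mitochondrial UMIs (-53.0 CPM), at least 1000 genes (-21.5), removal of doublet-scored barcodes (-60.5), resolution 1.2 (-42.5) and only libraries with at least 100 microglia (-29.8). The within-arm differences turned in places: BCD/Ket against BCD/Sal became 25.5 and 18.3 CPM and CORT/Ket against CORT/Sal -11.1 and -4.35, each without doublet-scored barcodes and at resolution 0.4. Their ranges over mice left out were -28.3 to -10.3 and 2.98 to 49.8, with -96.3 to -49.5 for CORT/Sal against BCD/Sal and -36.2 to -18.2 for CORT/Ket against BCD/Ket. Ket against Sal became -2.28 at 5% and -10.1 at 25% mitochondrial UMIs, -14.4 with at least 1000 genes, -1.04 at resolution 1.2, -38.7 as a mean over 4 classes and -15.0 with at least 100 microglia, and ranged from -16.6 to 17.4 over mice left out. The relation of Mbp to the oligodendrocyte share (r) became 0.776 at 5% mitochondrial UMIs, 0.925 without doublet-scored barcodes and 0.894 at resolution 0.4, each past the threshold by Pearson's r. Spearman's rho passed at 5% (0.951) and not in the others, at 0.588 (permutation p = 0.0796) and 0.600 (permutation p = 0.0719). The cluster of 111 barcodes, unnamed in the main run, held 42 Mbp UMIs of mouse 9946 in 8 barcodes. In that cluster 1 barcode held 56 member UMIs. Mouse 9946 also had the highest share of oligodendrocytes, 25.5%. Whether the cluster was named without doublet-scored barcodes or at resolution 0.4 is not given. Its part in r and in the turned BCD/Ket difference there was not tested. The value of r became -0.0331 with at least 1000 genes, -0.0183 at resolution 1.2 and -0.109 with at least 100 microglia. Without mouse 9970 it was 0.544. The alternatives by number of microglia were chosen after seeing the data.

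No paired analysis was possible because each mouse belonged to 1 treatment group and the replicate numbers are mouse numbers. Groups of 2 and 3 mice limit every contrast. The 12 newly formed barcodes limit that stage, and 29 named barcodes limit mouse 9970. The annotation used for counting is not settled, overlapping genes could share reads, and fewer cells and less RNA per cell cannot be told apart in the barcodes over the mitochondrial limit.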

Other observations

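The barcodes that no marker list named also held the 9 genes. The cluster of 2348 barcodes, 99.9% of them from mouse 9970, held 4822 UMIs of the 9 genes, 1316 CPM, and all 9 were present. Mbp took 23.6% of them, Cnp 17.8% and Mal 15.9%. The Mbp and Cnp shares were nearer to those of oligodendrocytes (17.5% and 15.1%) than to those of neurons (56.7% and 6.49%). The Mal share was nearer to that of neurons (10.7%) than to that of oligodendrocytes (25.5%). The UMIs were spread thinly: 361 of the 2348 barcodes had none of the 9 genes, the median barcode had 2 and the highest 10, against a median of 53 in oligodendrocytes. The other unnamed cluster, of 111 barcodes, held 88 UMIs of the 9 genes, of which Mbp took 62.5% and Mobp 22.7%, and 1 barcode carried 56 of the 88.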
